A study of Mus musculus with 10 samples.

Results

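The genes described here are 10 transcripts of migrating neuroblasts and immature interneurons: Dcx, Sox11, Igfbpl1, Dlx1, Dlx2, Dlx5, Dlx6, Sp8, Sp9 and Cd24a. They were taken by gene symbol from a table of 25050 genes, and all 10 were found once and had enough counts to be among the 14526 genes tested. The samples were 10 whole brains of FVB/NJ mice, 5 homozygous Abcc5 knockouts (Abcc5-/-) and 5 wildtype animals (Abcc5+/+), each sequenced as 1 library of polyadenylated RNA. Sex, age and the design of the deleted allele are not given in the sources used here, and nothing states whether the animals were littermates. Abcc5 encodes an ATP-binding cassette transporter of organic anions, and the comparison asks how its loss alters the brain transcriptome.

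In the adult mouse brain, new neurons arise from stem cells along the lateral ventricles. Their daughter cells divide, become neuroblasts and move in chains along the rostral migratory stream to the olfactory bulb, where most turn into inhibitory interneurons. A second niche in the dentate gyrus yields excitatory granule neurons. The homeodomain factors of the Dlx family specify forebrain inhibitory neurons, the zinc finger factors Sp8 and Sp9 act in the lineage that supplies the olfactory bulb, and the microtubule-binding protein doublecortin, encoded by Dcx, allows neuroblasts to migrate. Mature interneurons also keep some Dlx1, Dlx5, Dlx6 and Sp8 RNA, so these transcripts in whole brain do not count neuroblasts alone. In bulk RNA, fewer cells of a type and less RNA per cell cannot be told apart.

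The upstream sequences of 6 of the 10 genes were in the RefSeq promoter table (build GRCm38.p6), and they are shown because several of these genes moved together from library to library, as described further down. Each is the 250 bases before a listed start. The windows are chr2:71529195-71529444, plus strand for Dlx1, chr2:71546755-71547004, minus strand for Dlx2, chr2:73271676-73271925, plus strand for Sp9, chr12:118846079-118846328, plus strand for the first of 3 starts of Sp8, chrX:143933220-143933469, minus strand for the first of 2 starts of Dcx, and chr12:27342719-27342968, minus strand for Sox11. Capitals mark TAATTA, a core recognised by many homeodomain proteins, and GGGCGG, the GC box bound by Sp proteins, each searched on both strands (GGGCGG appears as CCGCCC on the other strand). The 2 motifs did not overlap.

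Dlx1: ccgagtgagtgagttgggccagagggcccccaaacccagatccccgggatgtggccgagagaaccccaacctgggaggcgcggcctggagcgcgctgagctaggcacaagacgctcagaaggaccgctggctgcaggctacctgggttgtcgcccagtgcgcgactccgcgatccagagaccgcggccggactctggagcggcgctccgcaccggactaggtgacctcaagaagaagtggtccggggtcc
Dlx2: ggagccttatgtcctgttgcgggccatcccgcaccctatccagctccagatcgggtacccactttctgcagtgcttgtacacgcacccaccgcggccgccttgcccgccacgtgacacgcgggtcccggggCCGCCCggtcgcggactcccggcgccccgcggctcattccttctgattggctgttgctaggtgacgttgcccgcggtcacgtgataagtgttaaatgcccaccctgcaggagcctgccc
Sp9: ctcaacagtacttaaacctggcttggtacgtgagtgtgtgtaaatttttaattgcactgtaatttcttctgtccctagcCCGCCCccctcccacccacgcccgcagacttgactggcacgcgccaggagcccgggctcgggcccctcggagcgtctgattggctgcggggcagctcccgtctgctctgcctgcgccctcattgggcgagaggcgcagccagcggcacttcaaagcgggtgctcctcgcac
Sp8: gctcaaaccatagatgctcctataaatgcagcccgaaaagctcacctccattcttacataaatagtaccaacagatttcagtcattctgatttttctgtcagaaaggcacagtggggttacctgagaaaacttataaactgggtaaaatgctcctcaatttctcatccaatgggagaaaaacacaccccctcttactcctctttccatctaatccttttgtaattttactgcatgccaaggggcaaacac
Dcx: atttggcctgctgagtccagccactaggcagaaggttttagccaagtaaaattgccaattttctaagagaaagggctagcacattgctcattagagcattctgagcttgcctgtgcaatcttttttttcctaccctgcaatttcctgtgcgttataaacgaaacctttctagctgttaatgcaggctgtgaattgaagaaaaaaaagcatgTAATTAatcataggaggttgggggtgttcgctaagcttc
Sox11: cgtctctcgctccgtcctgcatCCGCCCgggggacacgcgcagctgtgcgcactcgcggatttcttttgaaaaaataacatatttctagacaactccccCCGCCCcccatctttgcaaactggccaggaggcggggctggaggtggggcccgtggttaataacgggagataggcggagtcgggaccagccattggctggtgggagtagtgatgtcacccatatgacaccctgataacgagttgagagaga

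Over all listed starts of these genes, TAATTA occurred in 3 of 9 windows, both Dcx windows, which overlap each other, and the third Sp8 window, and in 4.84% of the 32841 windows of the same length across the table. GGGCGG occurred in 4 of the 9 windows, at Dlx2, Sox11, Sp9 and the second Sp8 start, and in 32.7% of all windows. The GC content of the windows shown was 68% for Dlx1, 66.4% for Dlx2, 62.4% for Sp9 and 58% for Sox11, against 41.6% for Dcx and 40.8% for the Sp8 start shown. Igfbpl1, Dlx5, Dlx6 and Cd24a had no window.

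Total counts ran from 7731294 to 23588335 per library, and knockout replicates 2 and 4 and wildtype replicate 1 were the only libraries above 15000000. The Abcc5 transcript was at 218.8 ± 5.95 CPM (TMM-scaled counts relative to library size) in knockout and 311.1 ± 12.6 CPM in wildtype brains (SD, n = 5 each), without overlap, so the labels fit the targeted gene, although transcript remained. The libraries differed in markers of brain regions, for reasons that were not tested. The cerebellar granule cell gene Gabra6 was at 1.58 CPM in knockout replicate 3, against 150.8 to 180.8 CPM in the other 4 knockouts and 150.01 to 176.1 CPM in wildtype. Cdhr1, a cadherin gene of the mitral and tufted cells that project from the olfactory bulb, was at 6.02 and 8.84 CPM in knockout replicates 1 and 2, against 24.5 to 37.7 CPM in the other 3 knockouts and 24.4 to 36.3 CPM in wildtype. The libraries low in these markers were all knockouts, so how the tissue was taken and genotype cannot be told apart. The fold changes of the 10 genes, the spread and the pair correlations are also given with knockout replicates 1, 2 and 3 left out, together or in part.

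None of the 10 genes differed between the genotypes at an adjusted p of 0.05 in edgeR's quasi-likelihood test, adjusted by Benjamini-Hochberg over all 14526 genes, where 171 genes (1.18%) passed, 140 lower (0.964%) and 31 higher (0.213%) in knockout. At an unadjusted p under 0.05 there was 1 member, Igfbpl1, which was lower in knockout, where 14.8% of all tested genes stood, and 8.03% of all tested genes were lower in knockout at that p. In no member were the 2 groups free of overlap, a pattern seen in 4.19% of all tested genes. All 10 fold changes were below 0, as were 48.4% of those of all tested genes, and the median log2 fold change of the 10 was -0.27, against 0.0042 over all tested genes. The members shared libraries and, in part, cells, so their directions are not independent. limma-voom also called none of the 10. DESeq2 called none of the 7 genes to which it gave an adjusted p, the lowest being 0.502 for Sp8, and gave none to Sox11, Igfbpl1 and Dlx5.

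**Figure D1:**
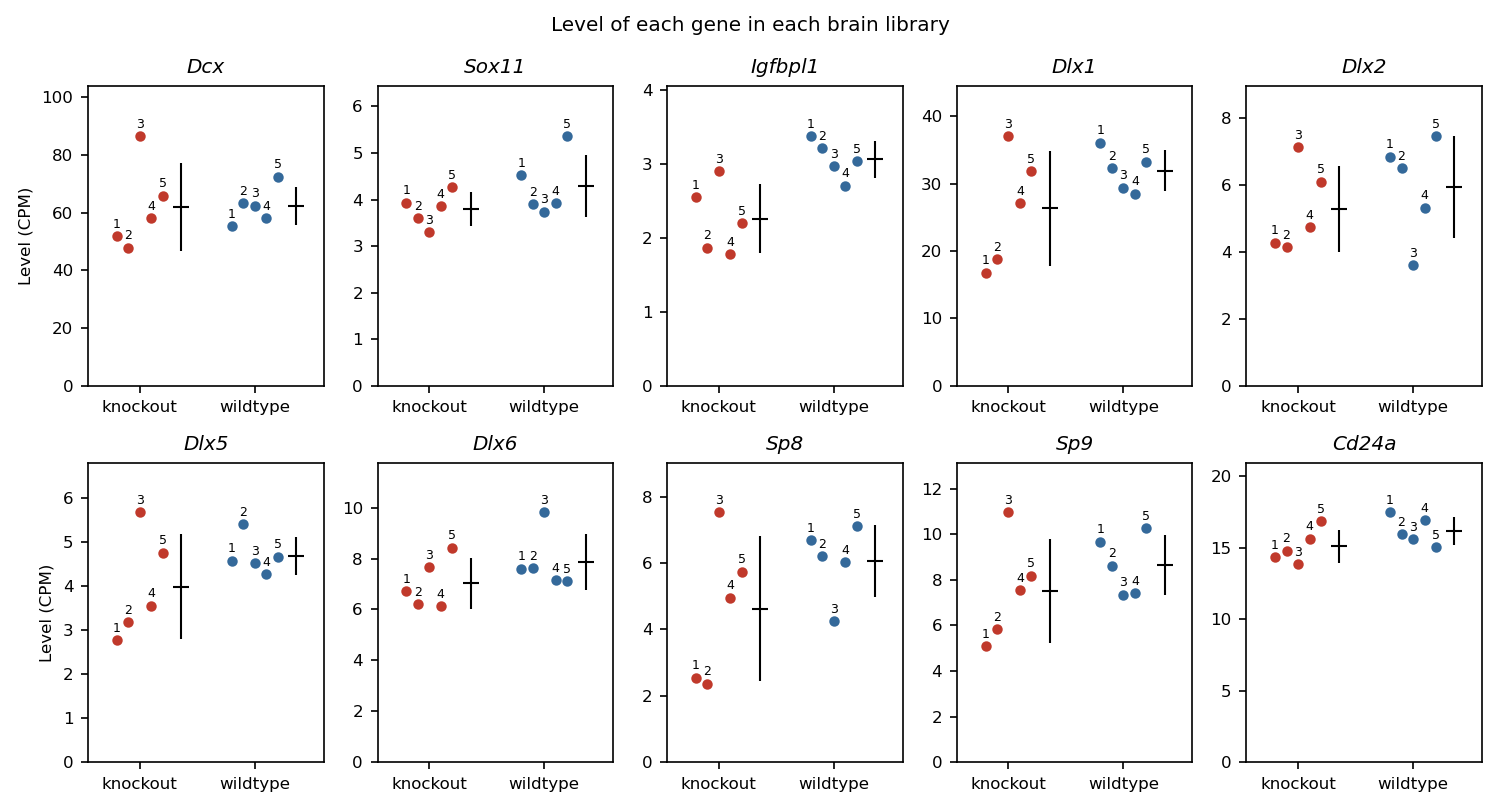
Level of each of the 10 genes in CPM (vertical axes, each starting at 0) in the 5 knockout libraries (red, left) and the 5 wildtype libraries (blue, right). Digits are replicate numbers and the black bar is the mean with 1 SD. Knockout replicates 1 and 2 lie lowest in Dlx1, Dlx5, Sp8 and Sp9, and knockout replicate 3 is the highest library in Dcx, Dlx1, Dlx5, Sp8 and Sp9.

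Dlx1 encodes a homeodomain transcription factor of inhibitory forebrain neurons (ENSMUSG00000041911, chromosome 2, from 71366170 to 71372038; coordinates here are those of the authors' table, which names no genome build). Its level was 16.8, 18.8, 37.1, 27.1 and 31.9 CPM in knockout replicates 1 to 5, and 36.1, 32.3, 29.4, 28.5 and 33.2 CPM in wildtype replicates 1 to 5. Replicates 1 and 2 of the knockout were far below every other library, replicate 4 was slightly below the wildtype range and replicates 3 and 5 were in or above it. The log2 fold change was -0.32 (SE 0.16, 95% interval -0.67 to 0.029, edgeR adjusted p 0.386). Its partner Dlx2 (chromosome 2, 71381466 to 71384811), which starts 9428 bases past the end of Dlx1 in the table and has a closely related role, was at 4.28, 4.15, 7.12, 4.74 and 6.10 CPM in the knockouts and 6.85, 6.51, 3.61, 5.32 and 7.47 CPM in wildtype. Here the lowest library was wildtype replicate 3, with 28 counts, and the groups overlapped throughout (log2 fold change -0.27, SE 0.18, edgeR adjusted p 0.513).

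Dlx5 and Dlx6, the homeodomain pair on chromosome 6 (6827805 to 6832085 and 6813334 to 6818568), act downstream of Dlx1 and Dlx2 in mouse forebrain development. Dlx5 was at 2.78, 3.19, 5.67, 3.56 and 4.76 CPM in the knockouts and 4.58, 5.41, 4.52, 4.27 and 4.67 CPM in wildtype. Knockout replicates 1, 2 and 4 were under the lowest wildtype library and replicate 3 was above the highest (log2 fold change -0.30, SE 0.16, edgeR adjusted p 0.416). Dlx6 was at 6.72, 6.20, 7.65, 6.14 and 8.42 CPM in the knockouts and 7.60, 7.62, 9.81, 7.15 and 7.12 CPM in wildtype, a narrower band that overlapped between the groups (log2 fold change -0.19, SE 0.12, edgeR adjusted p 0.466). Dlx6 lies wholly within the antisense gene Dlx6as1 (6770189 to 6819533), and Dlx1 wholly within Dlx1as (71354511 to 71375948). The library kit does not mark strand, so reads of these genes and their antisense partners cannot be told apart where exons overlap. Dlx6as1 was at 18.99, 17.99, 38.7, 20.3 and 30.5 CPM in the knockouts and 22.4, 28.2, 33.9, 32.2 and 37.2 CPM in wildtype (log2 fold change -0.32, edgeR adjusted p 0.456), and Dlx1as had a log2 fold change of -0.17 at 11 to 42 counts.

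Sp8 (chromosome 12, 120084802 to 120091051), a zinc finger factor needed for olfactory bulb interneurons in the mouse, varied more among knockouts than any other member. It was at 2.55, 2.37, 7.52, 4.96 and 5.74 CPM in the knockouts, from 22 to 117 counts, and at 6.70, 6.21, 4.26, 6.02 and 7.12 CPM in wildtype. Knockout replicates 1 and 2 stood below the lowest wildtype library, and the other 3 knockouts lay within or above the wildtype range. The log2 fold change was -0.51 (SE 0.25, 95% interval -1.04 to 0.026, edgeR adjusted p 0.364). Its relative Sp9 (chromosome 2, 73109982 to 73122763), with overlapping roles, was at 5.10, 5.83, 10.9, 7.54 and 8.18 CPM in the knockouts and 9.67, 8.62, 7.35, 7.42 and 10.3 CPM in wildtype (log2 fold change -0.26, SE 0.16, edgeR adjusted p 0.478). The order of the knockouts in Sp9 was the one seen in Dlx1, with replicates 1 and 2 lowest and replicate 3 highest.

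Dcx, on chromosome X (140290385 to 140367854), was the most counted of the 10, with 448 to 1372 counts per library. It was at 51.9, 47.9, 86.5, 58.1 and 65.9 CPM in the knockouts and 55.2, 63.2, 62.4, 58.2 and 72.5 CPM in wildtype. The means were nearly equal, 62.1 ± 15.3 CPM in knockout and 62.3 ± 6.54 CPM in wildtype (SD, n = 5 each), while the knockouts reached further to both sides (log2 fold change -0.020, 95% interval -0.29 to 0.25, edgeR adjusted p 0.969). Sox11 (chromosome 12, 28025562 to 28027574), an SRY-box factor of newborn neurons, and Cd24a (chromosome 10, 43298975 to 43304068), a glycosylated surface protein of neuroblasts and of ependymal cells, varied least among knockouts. Sox11 was at 3.94, 3.60, 3.30, 3.85 and 4.27 CPM in the knockouts and 4.53, 3.91, 3.74, 3.93 and 5.37 CPM in wildtype (log2 fold change -0.19, SE 0.13, edgeR adjusted p 0.511). Cd24a was at 14.4, 14.8, 13.9, 15.6 and 16.9 CPM in the knockouts and 17.5, 15.9, 15.6, 16.9 and 15.05 CPM in wildtype (log2 fold change -0.11, 95% interval -0.26 to 0.044, edgeR adjusted p 0.506). In both genes knockout replicate 3 was the lowest library, the opposite of its place in Dcx, Dlx1 and Sp9.

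Igfbpl1 (chromosome 4, 45822340 to 45839795), which encodes a secreted protein related to the insulin-like growth factor binding proteins, had the smallest p of the 10. It was at 2.55, 1.87, 2.90, 1.78 and 2.20 CPM in the knockouts and 3.37, 3.21, 2.97, 2.70 and 3.03 CPM in wildtype. Of the 5 knockouts, 4 lay below the lowest wildtype library, and only replicate 3 overlapped. The mean was 2.26 ± 0.470 CPM in knockout and 3.06 ± 0.253 CPM in wildtype (SD, n = 5 each), with a log2 fold change of -0.55 (SE 0.16, 95% interval -0.88 to -0.21, p 0.0034, edgeR adjusted p 0.115). These values rest on 18 to 67 counts per library. Counting error alone gives a coefficient of variation of 19.7% in knockout and 17.9% in wildtype, against 20.8% and 8.26% observed in those groups. The authors' deposited table gives Igfbpl1 a log2 fold change of -0.58 and an adjusted p of 0.173, and its adjusted p-values for the other 9 genes run from 0.346 to 0.930.

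**Figure D2:**
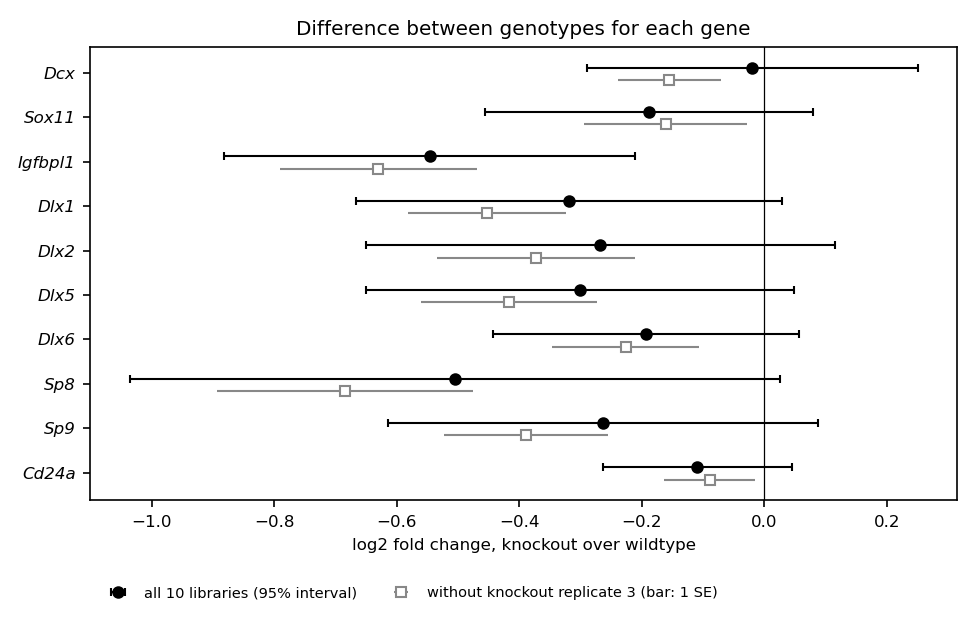
Log2 fold change of knockout over wildtype (horizontal axis) for each gene. Filled points are the fit to all 10 libraries with its 95% interval, and open squares the fit without knockout replicate 3 with 1 SE to each side. In all 10 libraries the interval of Igfbpl1, -0.88 to -0.21, is the one that leaves out 0, and that of Dcx is centred near 0.

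Without knockout replicate 3, the library that almost lacked Gabra6, Igfbpl1 passed (log2 fold change -0.63, SE 0.16, edgeR adjusted p 0.0446), in a fit where 2.31% of 14747 genes passed. Dlx1 then had -0.45 (edgeR adjusted p 0.0743) and Sp8 -0.68 (edgeR adjusted p 0.094), and neither passed. Without knockout replicates 1 and 2, the libraries low in Cdhr1, the log2 fold changes of Dlx1, Sp8 and Sp9 were -0.027, -0.085 and -0.022, that of Dcx was 0.16 and that of Igfbpl1 -0.53, with edgeR adjusted p-values of 0.322 to 0.975 over the 10 genes. Those libraries were left out after the values were seen and are also low in several members, so that fit is not independent of them. With replicates 4 and 5 as the only knockouts, Igfbpl1 had -0.70 (edgeR adjusted p 0.119), Dlx1 -0.15 and Sp8 -0.25. Among the 7 libraries under 15000000 counts, 3 knockout and 4 wildtype, Igfbpl1 had -0.22 (SE 0.19, edgeR adjusted p 0.713), Dlx1 -0.12, Sp8 -0.20 and Dcx 0.085. The deeper libraries hold a single wildtype brain and were not tested alone.

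The median spread between libraries was wider for the 10 genes than for all tested genes. That comparison was not matched for count level, and low counts widen the spread of log2 CPM. The median SD of log2 CPM was 0.33 in knockout and 0.17 in wildtype for the 10 genes, against 0.13 and 0.11 for all tested genes, and it was higher in knockout for 8 of the 10 (59.9% of all tested genes). Sp8 had the largest coefficient of variation in knockout, 47.3%, where counting error gives 14.97%, against 18.1% in wildtype. Dlx1 varied by 32.6% in knockout and 9.54% in wildtype, with counting error of 6.05% and 5.56% in those groups. Without knockout replicates 1 and 2 the median SD of the 10 genes in knockout was 0.28, and the coefficient of variation was 21.6% for Sp8 and 15.6% for Dlx1. Without knockout replicate 3 these values were 0.23, 43.6% and 29.9%. In both cases the SD was higher in knockout for 8 of the 10 genes, as it was for 58.7% and 48.2% of all tested genes. Cd24a varied by 7.79% in knockout and 6.08% in wildtype, no more than its counting error of 7.83% and 7.79%. For Sox11 the observed variation was 9.67% in knockout and 15.6% in wildtype, where counting gives 15.6% and 15.2%. For Igfbpl1 it was 20.8% in knockout and 8.26% in wildtype, where counting gives 19.7% and 17.9%. Dlx5 varied by 30.0% in knockout and 9.14% in wildtype, where counting gives 15.3% and 14.4%.

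Across libraries, a subset of the genes rose and fell together. After the mean of each genotype was removed, the 10 genes gave 45 pairs, and 11 had a Pearson and a Spearman correlation that both passed an adjusted permutation p of 0.05 (n = 10 libraries, Benjamini-Hochberg over the 45 pairs). All 11 joined genes of one set of 6, Dcx, Dlx1, Dlx2, Dlx5, Sp8 and Sp9. The closest pair was Dlx1 with Sp9 (r = 0.95, permutation p 5.0e-05, adjusted 0.00112; rho = 0.92, permutation p 0.00059, adjusted 0.00885), and r was 0.87 without the 2 libraries farthest from the median of Dlx1. Sp8 with Sp9 had r = 0.93 (permutation p 8.0e-05, adjusted 0.0012; rho = 0.96, permutation p 5.0e-05, adjusted 0.00225) and 0.90 without the 2 farthest. Dcx with Dlx5 had r = 0.85 (permutation p 0.00208, adjusted 0.0144; rho = 0.88, permutation p 0.00142, adjusted 0.0128), which was 0.68 without the 2 farthest. The neighbours on a chromosome did not pass: Dlx1 with Dlx2 had r = 0.72 (permutation p 0.0197, adjusted 0.0682; rho = 0.76, permutation p 0.0149, adjusted 0.0516), and Dlx5 with Dlx6 had r = 0.50 (permutation p 0.14, adjusted 0.371; rho = 0.56, permutation p 0.0956, adjusted 0.256). Sp9 lies 1737944 bases past the end of Dlx1. No pair that held Sox11, Igfbpl1, Dlx6 or Cd24a passed. The permutations moved values between the genotypes, although most of the 10 genes varied more in knockout, so the permutation p-values are approximate. All pairs share the same 10 libraries, and the 3 libraries named above for their tissue markers, knockout replicates 1, 2 and 3, held the lowest 2 values and the highest value of Dlx1. Over the 7 libraries without them, r for the 11 pairs ran from 0.23 (Dcx with Sp8) to 0.98 (Dlx2 with Sp8), with a median of 0.59. It was 0.84 for Dlx1 with Sp9 and 0.80 for Sp8 with Sp9, and 0.47 for Dcx with Dlx5, and the pairs of Dlx5 with Sp8 and Sp9 were at 0.32 and 0.34. These values are given with no test.

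**Figure D3:**
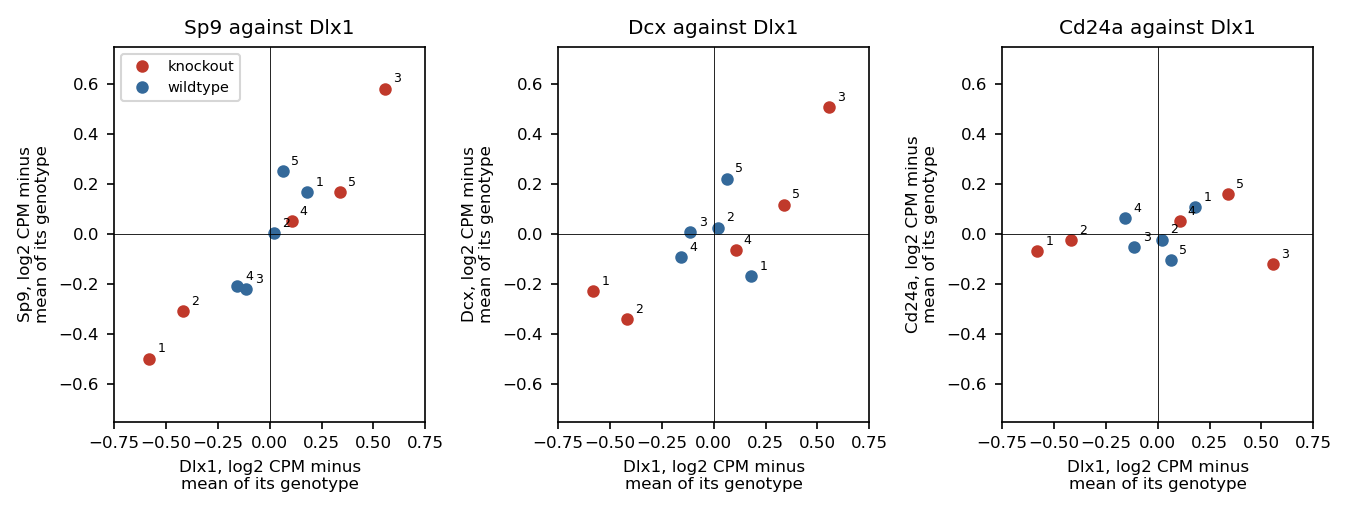
Levels of Sp9, Dcx and Cd24a against Dlx1 in each library, all as log2 CPM minus the mean of the library's own genotype (knockout red, wildtype blue, digits are replicate numbers). Sp9 follows Dlx1 closely (r = 0.95), Dcx follows less closely (r = 0.80), and Cd24a does not (r = 0.18).

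By library, knockout replicate 2 was among the 2 lowest libraries in 9 of the 10 genes and knockout replicate 1 in 6. Knockout replicate 3 was the highest library in 5 genes and the lowest in 2. Relative to the wildtype mean, the median log2 difference over the 10 genes was -0.34, -0.50, 0.25, -0.25 and 0.015 in knockout replicates 1 to 5, and 0.12, 0.024, -0.081, -0.12 and 0.14 in wildtype replicates 1 to 5. The same median over all tested genes was between -0.00095 and 0.0094 in every library. Thus knockout replicates 1, 2 and 4 were below every wildtype library on this measure, knockout replicate 5 was within the wildtype range and replicate 3 was above it.

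**Figure D4:**
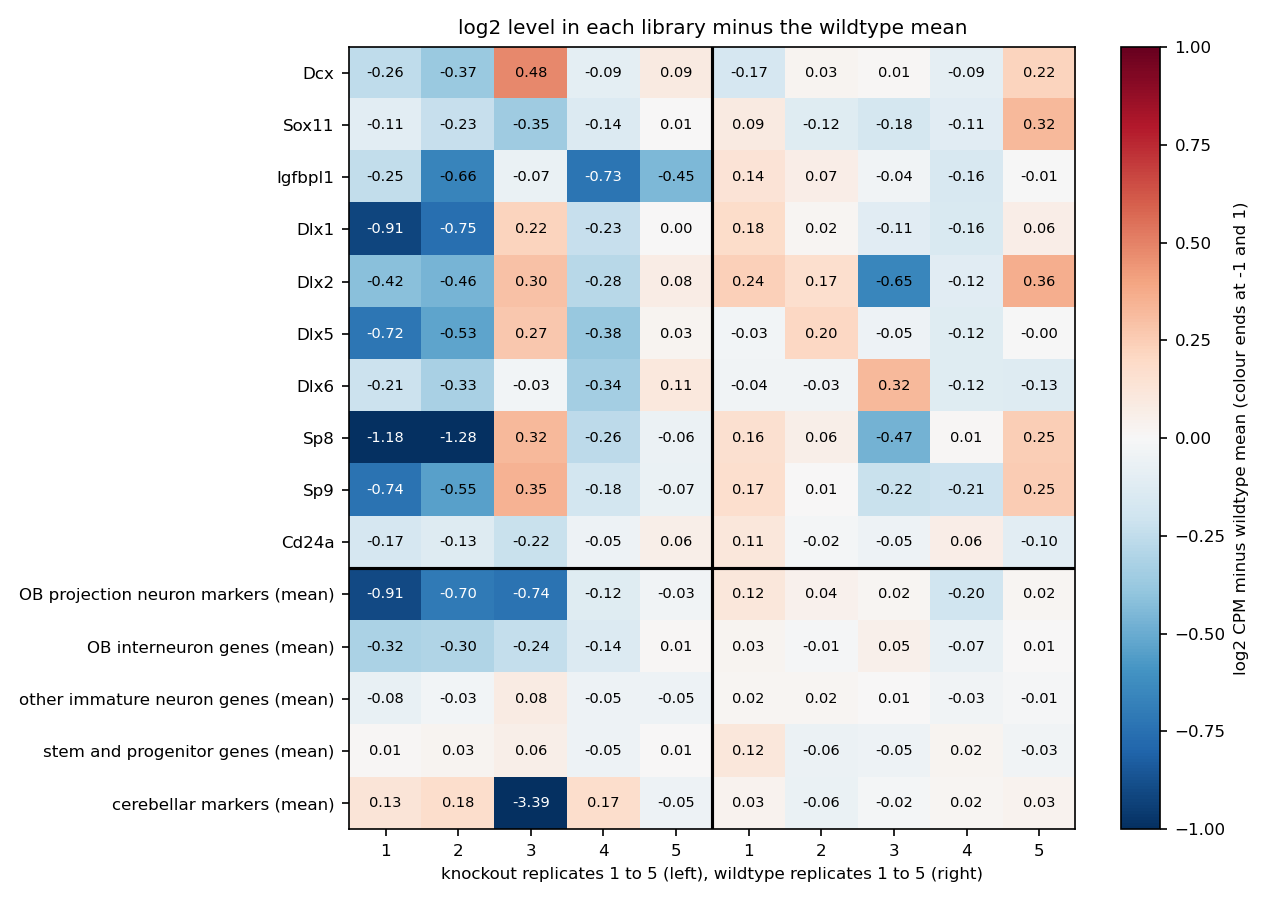
Log2 CPM minus the wildtype mean for the 10 genes (upper part) and for the mean of 5 gene lists (lower part; OB is olfactory bulb), in knockout replicates 1 to 5 and then wildtype replicates 1 to 5. Colours end at -1 and 1 and each cell prints its value. Knockout replicates 1 and 2 are low in Dlx1 (-0.91 and -0.75) and Sp8 (-1.18 and -1.28) and in the projection neuron markers (-0.91 and -0.70), and knockout replicate 3 is at -3.39 in the cerebellar markers.

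The other genes of the lineage were examined as lists that leave out the 10 genes. Of 19 tested genes of immature neurons, none passed in either direction and the median log2 fold change was -0.034. Gad1, the main enzyme of GABA synthesis, was at 476.6 ± 28.9 CPM in knockout and 520.7 ± 8.85 CPM in wildtype (SD, n = 5 each); its log2 fold change was -0.13 (edgeR adjusted p 0.184). The polysialyltransferase gene St8sia4 had -0.22 (edgeR adjusted p 0.254), and Sox4, a close relative of Sox11, had -0.14 (edgeR adjusted p 0.645). Of 19 tested genes of neuroblast guidance and migration, none passed, with a median of 0.018. Among them the reelin receptor genes Lrp8 and Vldlr had -0.13 and -0.11 (edgeR adjusted p 0.133 and 0.314). Prokr2, the receptor for a prokineticin that guides neuroblasts into the bulb, was at 3.13, 2.92, 5.28, 3.18 and 5.01 CPM in the knockouts and 4.93, 5.61, 4.39, 3.84 and 4.32 CPM in wildtype. As in Dlx1, knockout replicates 1 and 2 were the lowest and replicate 4 was next. The guidance and migration list as a whole did not have this order. Its mean, relative to wildtype, was -0.078, 0.0050, 0.097, -0.10 and -0.0043 in knockout replicates 1 to 5, and -0.052 to 0.028 in wildtype.

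Upstream in the lineage, 16 genes of neural stem cells and dividing progenitors were tested and none passed, with a median of -0.055. Proliferation genes were low but measurable. Mki67 was at 3.38 ± 0.616 CPM in knockout and 3.30 ± 0.558 CPM in wildtype, and Top2a, a topoisomerase of dividing cells, at 2.39 ± 0.891 and 2.33 ± 0.672 CPM in those groups (SD, n = 5 each). Nes, which encodes the intermediate filament nestin, was at 16.1 ± 1.48 CPM in knockout and 20.1 ± 2.06 CPM in wildtype (log2 fold change -0.34, edgeR adjusted p 0.0755). Its groups did not overlap (at most 17.5 CPM in knockout, at least 18.2 CPM in wildtype), a pattern seen in 4.19% of all tested genes. The mean of this list lay between -0.054 and 0.061 in the knockouts and between -0.057 and 0.12 in wildtype, on the log2 scale relative to the wildtype mean.

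Downstream, the list of olfactory bulb interneuron genes had 18 tested genes, with a median of -0.11. In it 1 gene fell, and no other gene passed in either direction. The gene that fell was Eomes, a T-box factor listed there, in the dentate gyrus list and among the projection neuron markers. Its fall therefore cannot be assigned to interneurons. It was at 4.63, 3.64, 7.12, 7.58 and 12.5 CPM in the knockouts and 17.97, 15.6, 17.03, 14.7 and 14.8 CPM in wildtype, without overlap (log2 fold change -1.27, SE 0.22, edgeR adjusted p 0.00805). In the 7 libraries under 15000000 counts it did not pass (-0.94, edgeR adjusted p 0.144), and it passed in the other 20 of 21 alternatives, including without knockout replicates 1 and 2 (-0.88, edgeR adjusted p 0.0313) and without replicates 1 to 3 (-0.81, edgeR adjusted p 0.0109). Tyrosine hydroxylase (Th), listed for dopaminergic bulb interneurons, was at 11.5, 11.4, 22.9, 18.5 and 19.04 CPM in the knockouts and 19.3, 16.7, 16.4, 14.3 and 16.1 CPM in wildtype. In whole brain its level cannot be assigned to the bulb. For Th, knockout replicates 1 and 2 were the lowest libraries and replicate 3 the highest (log2 fold change -0.038, edgeR adjusted p 0.951). Replicate 3 was not high in the list as a whole, which shares Zic1 and Calb1 with the cerebellar list. Their lowest knockout levels were 53.3 and 130.2 CPM, against at least 205.1 and 248.7 CPM in wildtype. The list mean of replicate 3 therefore cannot be assigned to bulb interneurons. Calb2, also of the interneuron list, was at 117.3, 126.96, 79.5, 142.9 and 115.9 CPM in the knockouts, lowest in replicate 3. The mean of the interneuron list, relative to wildtype, was -0.32, -0.30, -0.24, -0.14 and 0.0091 in knockout replicates 1 to 5, and -0.072 to 0.051 in wildtype. Among the cortical interneuron genes none of 19 passed, with a median of 0.11. Of 12 tested paralogs of the 10 genes, none passed, with a median of -0.024, and of the 2 noncoding genes at the Dlx loci neither did.

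The list mean of the markers of olfactory bulb projection neurons was low in knockout replicates 1 to 3, but the markers did not move as one. In replicate 3 that mean cannot be assigned to bulb neurons, as Cdhr1 and Doc2g were not low there. Among the knockouts, Cdhr1, Doc2g and Scgn were lowest in replicates 1 and 2 and highest in replicate 3, as Dlx1 was. A place in the list does not establish which cells a transcript came from. Lhx1, Lhx5, Barhl2 and Uncx were instead lowest in replicate 3. In this list 1 of 11 tested genes, Eomes, fell and none rose. The list mean, relative to wildtype, was -0.91, -0.70, -0.74, -0.12 and -0.035 in knockout replicates 1 to 5, and lay between -0.20 and 0.12 in wildtype. The summed level of the list was 172.5 to 212.3 CPM in knockout and 206.6 to 225.3 CPM in wildtype. Tbx21, a T-box factor of mitral and tufted cells, had 0, 5, 8, 26 and 10 counts in the knockouts and 7 to 28 counts in wildtype. Of the 11 markers, 6, 5, 5, 2 and 3 were below the lowest wildtype library in knockout replicates 1 to 5. In knockout replicate 3 these were Eomes and the homeobox genes Lhx1 (2.37 CPM, against at least 18.6 CPM in wildtype), Barhl2 (2.77 CPM, against at least 5.51 CPM), Uncx (1.32 CPM, against at least 7.00 CPM) and Lhx5 (1.71 CPM, against at least 4.27 CPM), while Cdhr1 and Doc2g were at 37.7 and 8.97 CPM. In knockout replicates 1 and 2 Cdhr1, Doc2g, Tbx21, Scgn and Eomes were below the lowest wildtype library, as was Lhx1 in replicate 1, and Barhl2, Uncx and Lhx5 were not. The part of these marker differences in the levels of the 10 genes was not tested. Among the other marker lists, none of 11 striatal, 12 cerebellar, 6 ependymal, 10 oligodendrocyte precursor or 4 blood genes passed, with medians of 0.085, -0.10, 0.0073, 0.10 and 0.32.

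Per kilobase of exon, using GENCODE vM21 exon lengths on GRCm38, the levels of the 10 genes over all 10 libraries fell into an order. Cd24a was highest at 6.07 ± 0.455 CPM per kilobase, followed by Dlx1 at 5.397 ± 1.25 and Dcx at 4.92 ± 0.876 (SD, n = 10), and these 3 did not differ from their neighbours beyond the SD. Dlx6 followed at 3.13 ± 0.457 CPM per kilobase, below Dcx by more than either SD. Dlx2 at 1.97 ± 0.482, Dlx5 at 1.92 ± 0.408 and Sp9 at 1.604 ± 0.368 CPM per kilobase came next, and both Dlx2 with Dlx5 and Dlx5 with Sp9 differed by less than the larger SD of the pair. Sp8 followed at 1.17 ± 0.394 CPM per kilobase, below Sp9 by more than either SD, and Igfbpl1 at 0.818 ± 0.170, within the SD of Sp8. Sox11, an intronless gene, was lowest at 0.487 ± 0.0691 CPM per kilobase. That value divides by 8.31 kilobases of exon, more than the whole span the authors' table gives Sox11, which is 2.01 kilobases. Over that span its level would be 2.01 ± 0.285 CPM per kilobase, close to Dlx2, so its last place rests on the exon length used. The exon lengths of the authors' annotation are not given in the sources used here, so the order of the other genes also depends on the lengths used. Each SD is of 1 gene over the same 10 libraries. It is not the error of a difference between genes.

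The genes whose pattern was most like that of the 10 were ranked by Pearson correlation with the mean of the 10 genes' scaled values, over 10 libraries and with each genotype's mean removed, among 14497 other genes of at least 1 CPM. The 10 nearest were Zmym3 (r = 0.95), Scgn (0.95), Accn4 (0.95), Zfp516 (0.94), Spred2 (0.93), Gng4 (0.93), Limd2 (0.93), Myo16 (0.93), Ovca2 (0.93) and Pcna (0.92). Without knockout replicate 3 these correlations were 0.88 to 0.93. They are the top of a long ranking and are given as a description, with no test. Gng4, a G protein gamma subunit, was at 56.2 ± 17.3 CPM in knockout and 65.8 ± 3.28 CPM in wildtype (SD, n = 5 each). Scgn, a calcium-binding protein gene, was at 1.52 ± 0.935 and 2.34 ± 0.751 CPM in those groups (SD, n = 5 each). It was placed in the projection neuron list, but which cells express it was not tested here. Among the 10 themselves, each set against the mean of the other 9, r was 0.92 for Dlx1, 0.90 for Sp8, 0.89 for Sp9, 0.85 for Dlx5, 0.77 for both Dcx and Dlx2, 0.41 for Igfbpl1, 0.30 for Dlx6, 0.072 for Sox11 and -0.011 for Cd24a.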

How the data were processed

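RNA of 10 whole mouse brains was measured by RNA-seq. The table deposited by the authors holds raw counts per Ensembl gene and library, together with the authors' own comparison of the genotypes, given as a log2 fold change and an adjusted p-value. Per the submitters' processing notes, the tools were TopHat2 2.0.6, HTSeq, edgeR and limma; their settings, the strand mode and the genome build are not given in the sources used here. Deposited numbers that are damaged, 629 of the fold changes and 8 of the p-values, were not read. Another 10 columns of values per library were damaged and not used.

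The tests were run on these counts with edgeR 4.0.16 (R 4.3.3): filterByExpr (minimum count 10, minimum total 15), TMM scaling (factors 0.982 to 1.01), and a quasi-likelihood test with genotype as its only term, adjusted by Benjamini-Hochberg over 14526 genes. Levels are TMM-scaled CPM; a prior count of 2 was added for log2 CPM. Standard errors were computed as the fold change over the root of F. The common biological coefficient of variation was 0.071. The p-values measure the spread between libraries within a group, whose chi-square per degree of freedom (1.27 to 11.3) was above counting error. Promoter sequences are from RefSeq. On simulated data for this comparison (14451 genes), the test called 81 of 100 genes set to a 1.5-fold change, 97 of 100 set to 2-fold, and 11 of 14253 left unchanged. The changed genes were drawn at random, and each gene had the same dispersion in both groups. The 10 genes varied more in knockout (median SD of log2 CPM 0.33, against 0.13 for all tested genes), so these rates may not hold for them.

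The members, the lists and the alternatives were chosen with earlier results of these data known. The lists (14) came from general knowledge. Named are all 10 members, called list genes, up to 2 genes of smallest p and 2 most expressed per list, and the 10 genes most like the members. Gabra6, Doc2g, Tbx21, Lhx1, Lhx5, Barhl2, Uncx, Prokr2, Th, Calb2, Sox4, Mki67 and Top2a were chosen after their values were seen. Alternatives were limma-voom (limma 3.58.1), DESeq2 1.42.0 (size factors and Wald test), upper-quartile scaling, a filter of 1 CPM in 5 libraries or none, a block for replicate number, leaving out each library, the 7 libraries under 15000000 counts, depth class as a term, and an adjusted p of 0.1. Leaving out knockout replicates 1 and 2, or 1 to 3, together, and the spread, pairs and Eomes without them, were chosen after seeing the data. Correlations used 100000 permutations.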

Additional observations from a re-analysis of the deposited data

Results flagged for a closer look

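Within each group of 5 libraries, the gap between an extreme library and its nearest neighbour was set against the range of the group (Dixon's criterion, 0.71), for 20 groups of the 10 genes and 28 groups of list means. Of these 48 groups 4 stood out, where chance gives about 1 in 20. Dlx6 in wildtype replicate 3 was at 9.81 CPM, apart from the other 4 wildtype libraries at 7.12 to 7.62 CPM. The mean log2 CPM of the cortical interneuron genes in wildtype replicate 3 was 0.082 above the wildtype mean. The mean of the paralogs in wildtype replicate 4 was -0.067 relative to the wildtype mean. The mean of the cerebellar markers in knockout replicate 3 was -3.39 relative to the wildtype mean, where the other 4 knockouts lay between -0.052 and 0.18.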

How the results depend on the processing

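Igfbpl1 was called without knockout replicate 3 (log2 fold change -0.63, edgeR adjusted p 0.0446), and none of the 10 genes was called under any other alternative run, with the exception that the DESeq2 Wald test gave no adjusted p to Sox11, Igfbpl1 and Dlx5 and so could not call them. Hence the number called ran from 0 to 1 with 1 library left out. All members except Dcx and Dlx2 kept a fold change below 0 in all 21 alternatives. Dcx was at 0.085 in the libraries under 15000000 counts, 0.039 with depth class as a term and 0.16 with knockout replicates 3, 4 and 5 as the only knockouts, and ran from -0.16 to 0.069 with 1 library left out. Dlx2 was at 0.0068 in the libraries under 15000000 counts. The cause of these changes was not tested.

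Over all genes, 171 were called. The count was 261 by the DESeq2 Wald test, 31 in the libraries under 15000000 counts, 62 with knockout replicates 3, 4 and 5 as the only knockouts, 373 at an adjusted p of 0.1, and from 76 (without wildtype replicate 4) to 341 (without knockout replicate 3) with 1 library left out. The replicate numbers are shared between the groups, but same-numbered libraries did not deviate together over all tested genes (r from -0.14 to 0.089). That measure cannot exclude a pairing of the animals, on which the sources used here say nothing. With the replicate block the count was 90, and none of the 10 genes was called. Of the genes of the other lists, 1 was called, against 3 by the DESeq2 Wald test, 0 in the libraries under 15000000 counts, where Eomes was lost (-0.94, edgeR adjusted p 0.144), 4 with knockout replicates 4 and 5 as the only knockouts, and 1 to 5 with 1 library left out. Low counts limit Igfbpl1, Sox11, Dlx2, Dlx5 and Sp8, which had under 30 counts in at least 1 library.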
